A study of Mus musculus with 7 samples.

Results

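Crest-derived smooth muscle cells were examined in 6 single-cell RNA-seq libraries of neural crest cells (NCCs) from mouse embryos. A cell was taken as a member when it had at least 1000 genes detected, at most 10% of its unique molecular identifiers (UMIs, each standing for 1 captured transcript) from mitochondrial genes, at least 3 UMIs of Acta2, at least 3 UMIs of Tagln and 0 UMIs of Sox10. This rule found 438 cells, 0.833% of the 52558 cells that passed the gene and mitochondrial filters. They were set beside 31121 other mesenchymal cells, defined as all remaining cells with 2 or more UMIs of Twist1, Prrx1 and Prrx2 together, and 429 of the 438 members carried that mesenchymal signature too. The members were picked on measured UMIs, so the levels of Acta2, Tagln, Sox10, Twist1, Prrx1 and Prrx2 are given only as a description.

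The study asked how loss of Tbx1, a transcription factor gene, changes NCCs of the pharyngeal apparatus. Control embryos were Wnt1-Cre/+;ROSA-EGFPf/+ on a mixed Swiss Webster background, and Tbx1 null embryos carried the same Cre and reporter; for the null libraries the title says null while the genotype field reads Tbx1+/-, and they are called null here after the title. The study's own summary of its experiments gives the null libraries as Tbx1-/-. At E9.5 there was 1 control and 1 null library, and at E10.5 there were 2 of each. Every library was a pool of embryos of 1 genotype from which EGFP+ DAPI- cells were sorted. Wnt1-Cre labels the neural crest and the dorsal neural tube, so the sort also held neural cells. The heart was included at both stages, but the dissection included the first arch at E9.5 and left it out at E10.5, so that stage and dissected tissue cannot be told apart. The Tbx1 null E9.5 library and replicate 1 of the Tbx1 null E10.5 libraries were made with an earlier kit version than the other 4 libraries. The part of the kit in any difference was not tested, and at E9.5 kit and genotype cannot be told apart.

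Vascular smooth muscle contracts through actin and myosin filaments whose genes are switched on together, largely by serum response factor (SRF) with its partner myocardin acting at CArG boxes. In the pharyngeal region, NCCs that reach the caudal arches and the cardiac outflow tract wrap the arch arteries and form their smooth muscle layer, and signals such as TGF-beta, BMP, Notch and endothelin from neighbouring endothelium are known to take part. Acta2 (smooth muscle actin) and Tagln (transgelin, an actin-binding protein) are early genes of this program, whereas Myh11 (smooth muscle myosin heavy chain) marks later cells.

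Promoter windows of contractile genes were read from RefSeq (GRCm38.p6, 250 bases before to 50 bases after each transcript start) and searched on both strands for the CArG box, the site bound by SRF, in its strict form (CC, then A or T at each of 6 positions, then GG). Such a box was present in 1.63% of 32851 windows of all genes, and counted by gene, in at least 1 window of 1.81% of 27025 genes. Of the 25 contractile genes that could be matched 4 had one, namely Myl9, Vcl, Cnn2 and Myl6. Among the genes tested between members and other mesenchyme it stood in 1.33% of the windows, in 2.46% of those of genes higher in members and in 1.12% of those of genes lower in members. The windows of 3 of them, and those of the striated muscle actin genes Acta1 and Actc1, are shown because all 5 genes were higher in members; the CArG box is in capitals. The box lay 161 bases before the start site in Myl9, 56 in Cnn2, 227 in Vcl, 47 in Actc1 and 73 in Acta1. The strict form was not in the windows of Acta2 and Cnn1, which says only that these letters are not in these windows. Sites 1 base off the form were not counted, and the start used for Acta2 lay 217 bases from the nearest GENCODE start. Tagln, Myh11 and Actg2 had no entry.
Myl9 promoter, chr2:156775214-156775513, + strand: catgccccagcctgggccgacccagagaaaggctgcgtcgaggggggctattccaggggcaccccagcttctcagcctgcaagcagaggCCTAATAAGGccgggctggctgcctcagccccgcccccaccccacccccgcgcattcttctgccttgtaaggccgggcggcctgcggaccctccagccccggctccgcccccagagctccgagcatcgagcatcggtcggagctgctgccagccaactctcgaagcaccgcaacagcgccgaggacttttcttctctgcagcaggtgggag
Cnn2 promoter, chr10:79988350-79988649, + strand: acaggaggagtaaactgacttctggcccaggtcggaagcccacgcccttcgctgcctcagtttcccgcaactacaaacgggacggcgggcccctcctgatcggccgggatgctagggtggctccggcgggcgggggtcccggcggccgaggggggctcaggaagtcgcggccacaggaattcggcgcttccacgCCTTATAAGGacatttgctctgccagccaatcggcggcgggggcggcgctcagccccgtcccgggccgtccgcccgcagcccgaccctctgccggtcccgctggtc
Vcl promoter, chr14:20929148-20929447, + strand: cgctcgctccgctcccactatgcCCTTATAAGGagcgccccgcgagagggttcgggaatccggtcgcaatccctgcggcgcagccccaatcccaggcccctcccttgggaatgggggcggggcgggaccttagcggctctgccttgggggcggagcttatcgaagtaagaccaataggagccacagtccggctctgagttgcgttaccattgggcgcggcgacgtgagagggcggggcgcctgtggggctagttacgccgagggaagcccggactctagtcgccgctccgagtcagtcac
Actc1 promoter, chr2:114052826-114053125, - strand: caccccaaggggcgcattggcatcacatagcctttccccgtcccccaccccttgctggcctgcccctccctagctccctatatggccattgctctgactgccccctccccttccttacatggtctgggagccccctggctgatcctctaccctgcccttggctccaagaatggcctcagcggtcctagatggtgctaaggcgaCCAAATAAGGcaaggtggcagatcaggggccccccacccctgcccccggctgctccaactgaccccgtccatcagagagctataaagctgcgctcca
Acta1 promoter, chr8:123894726-123895025, - strand: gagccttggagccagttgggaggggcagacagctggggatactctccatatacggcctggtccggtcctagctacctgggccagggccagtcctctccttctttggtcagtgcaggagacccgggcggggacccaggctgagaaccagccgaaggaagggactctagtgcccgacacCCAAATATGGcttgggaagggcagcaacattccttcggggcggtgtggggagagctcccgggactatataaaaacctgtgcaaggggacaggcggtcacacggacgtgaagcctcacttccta

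The libraries held 146254671 to 234844769 UMIs, and the members of a library together 900344 to 3178344 UMIs. Median UMIs per cell were 19159 to 27000 in the 438 members and 16922.5 to 25085.5 in other mesenchymal cells, and the median mitochondrial share of members was 2.17% to 4.49%. Library pairs shared 17 to 44 cell barcodes, and 0 barcodes were members in both. Tbx1 itself gave 213, 902 and 798 UMIs in all barcodes of the control E9.5, control E10.5 replicate 1 and control E10.5 replicate 2 libraries and 155, 570 and 428 UMIs in the Tbx1 null E9.5, E10.5 replicate 1 and E10.5 replicate 2 libraries. Whether the counted 3′ ends lie inside the deleted part is not given in the sources used here, so these UMIs do not check the genotype. At least 1 Tbx1 UMI was found in 6 of 32, 26 of 99 and 25 of 159 control members and in 4 of 45, 10 of 53 and 6 of 50 null members, in the same order, against 0.584% to 4.37% of all barcodes of a library. A doublet caller, Scrublet, marked 54 of the 438 members, and these were kept. By library it marked 2.22% to 17.2% of members and 6.30% to 10.7% of filtered cells, with the highest member share in control E10.5 replicate 1, where filtered cells were at 8.54%.

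The label was checked against cardiac muscle genes first, because the rule asks for Acta2 and Tagln without Sox10 and sets no limit on cardiac genes. Of the 438 members, 18 carried 128 to 2426 UMIs (median 700.5) of 7 heart muscle genes, and the other 420 carried 0 to 7. The 7 genes were Myh6, Myh7, Tnnt2, Myl7, Myl4, Nppa and Nkx2-5. These 18 sarcomeric cells made up 4 of 32 members in the control E9.5 library, 9 of 45 in the Tbx1 null E9.5 library, 3 of 99 and 0 of 159 in the control E10.5 libraries, and 0 of 53 and 2 of 50 in the Tbx1 null E10.5 libraries. Their share was highest at E9.5 in both genotypes. Rgs5 and Gata3 had 0 UMIs in all 18, and 17 also met the mesenchymal signature. Nkx2-5, a cardiac factor gene among the 7 that picked these cells, was detected in 17. Scrublet marked 0 of the 18, and in 1 of the 2 sarcomeric cells of the Tbx1 null E10.5 replicate 2 library Myog and Myod1, the skeletal myogenic factor genes, reached 94 and 13 UMIs. Cnn1, in turn, was detected in 15 of the 18 and in 249 of the other 420. Median UMIs were 119 and 19 for Acta2, and 27 and 42 for Tagln. By their cardiac genes the 18 cells go against the name smooth muscle. From here each value in CPM is over the 420 members without them, unless all 438 are named. This choice was made after seeing the data. CPM stands for the UMIs of a gene per 1000000 UMIs, both summed over the members of a library.

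Over all 438 members the median UMIs per cell were 17.5 of Acta2 and 40 of Tagln in the control E9.5 library and 12 and 25 in the Tbx1 null E9.5 library, and at E10.5 they were 17 to 25 of Acta2 and 33 to 52 of Tagln. In the 420 members the remaining smooth muscle markers were well above the other mesenchyme of the same library. Cnn1 (calponin, a regulator of actomyosin contraction) stood at 32.5 CPM in the control E9.5 library, 54.4 CPM in the Tbx1 null E9.5 library, 115 and 122 CPM in the control E10.5 libraries and 99.01 and 153 CPM in the Tbx1 null E10.5 libraries. Other mesenchymal cells had 0.246 to 1.57 CPM, so the summed levels of members and of other cells did not overlap in any library. Single cells did overlap, as the shares with at least 1 UMI below show. Rgs5, a regulator of G protein signalling in mural cells, stood at 62.4 and 51.4 CPM at E9.5 (control, null), 316 and 270 CPM in the control E10.5 libraries and 305 and 258 CPM in the Tbx1 null E10.5 libraries, against 0.383 to 19.8 CPM in other mesenchyme. At least 1 UMI of Cnn1 was found in 30.6% to 70.8% of members by library and in 0.573% to 1.88% of other mesenchymal cells, and in 0.0697% to 0.408% of the Sox2+ neural cells of the sort, which should lack it. Those neural cells were shallower, with median depths of 11446.5 to 17260 UMIs against 17707.5 to 27000 UMIs. With every cell thinned to 5000 UMIs, Cnn1 was found in 20.6% to 39.1% of members and in 0% to 0.105% of the neural cells. Cells too shallow for this were left out, which kept 28 of 28 and 34 of 36 members at E9.5 (control, null), 95 of 96 and 157 of 159 in the control E10.5 libraries, 51 of 53 and 46 of 48 in the Tbx1 null E10.5 libraries, and 949 to 3560 of the 980 to 3599 neural cells of a library. Myh11 was low, with 0 to 27.8 CPM in members.

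**Figure D1:**
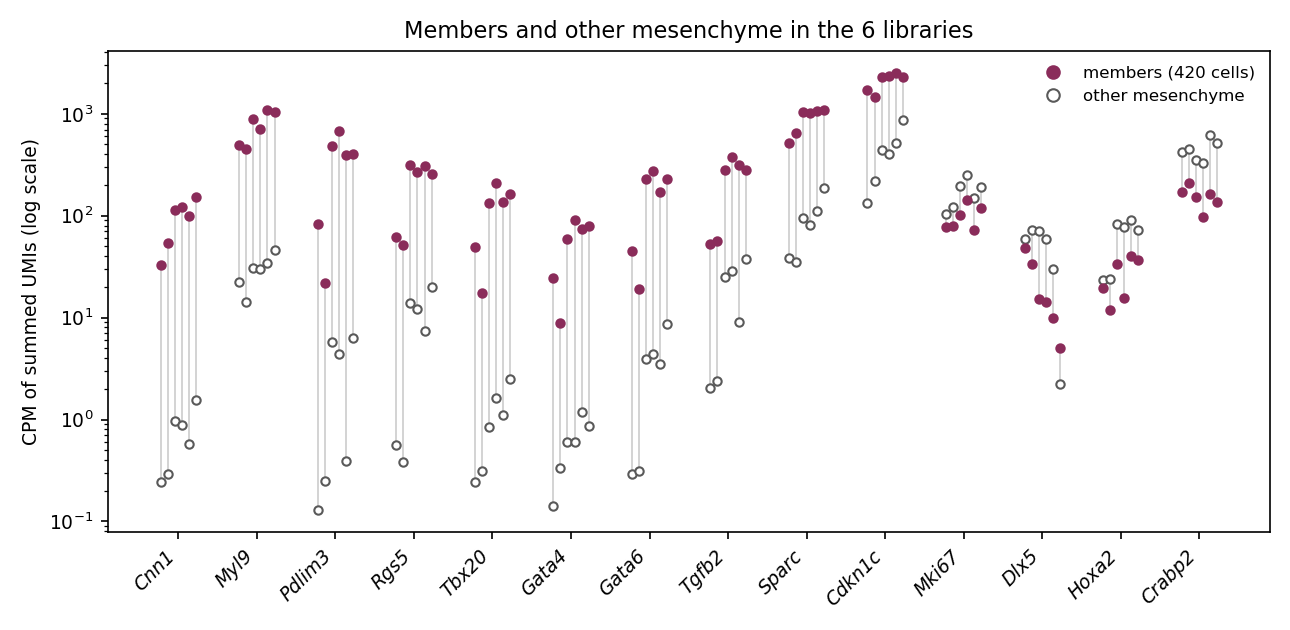
Level of 14 genes (CPM, logarithmic axis) in the 420 members without sarcomeric cells and in other mesenchymal cells, 1 point per library in the order control E9.5, Tbx1 null E9.5, control E10.5 and Tbx1 null E10.5. Cnn1 is between 32.5 and 153 CPM in members of every library and at most 1.57 CPM in other mesenchyme.

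Since the cells were picked by UMIs of Acta2 and Tagln in the same libraries, genes detected together with them had to be higher, the differences between members and other mesenchyme describe the cells that the rule gathers, and their p-values are not independent evidence that the cells form a type. Library was the block in this comparison, so that members and other cells of the same pool were compared. Of 14054 genes tested over all 438 members, 37.1% passed an adjusted p of 0.05, 2298 higher (16.4%) and 2923 lower (20.8%), with a median log2 difference of -0.10. Over the 420 members the share was 37.1% of 13989 genes, 2268 higher (16.2%) and 2919 lower (20.9%), and its log2 differences, with standard errors, are those given below.

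Of the 26 contractile genes tested, 23 were higher in members and 0 lower, with a median log2 difference of 1.95. The regulatory light chain Myl9 was at 455 to 490 CPM at E9.5 and 712 to 1080 CPM at E10.5, against 14.2 to 46.4 CPM in other mesenchyme, a log2 difference of 4.58 ± 0.10 (SE). Pdlim3, a Z-disc and actin cytoskeleton adaptor, differed by 7.20 ± 0.47, and Cnn1 by 6.94 ± 0.14. The enteric and vascular actin gene Actg2 differed by 6.69 ± 0.58, with 1.47 to 164 CPM in members. More broadly expressed actin-binding genes were higher by less, with 2.74 ± 0.08 for Tpm1 (tropomyosin), 2.08 ± 0.09 for Cnn2 and 1.99 ± 0.11 for Vcl (vinculin). The 3 tested genes that did not pass were the kinase gene Mylk at 0 to 3.61 CPM, the integrin gene Itga8 and Ppp1r12b.

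Muscle genes outside the smooth muscle list were among the largest differences of all named genes. Acta1 (skeletal muscle actin) differed by 8.62 ± 0.40, Ankrd1 (a mechanosensitive muscle repressor) by 8.55 ± 0.25 and Actc1 (cardiac actin) by 6.89 ± 0.27. Actc1 was at 122 and 248 CPM at E9.5 (control, null), 439 and 254 CPM in the control E10.5 libraries and 604 and 272 CPM in the Tbx1 null E10.5 libraries, against 1.21 to 5.51 CPM in other mesenchyme. These values hold without the sarcomeric cells. In the 420 members Myh7 was at 0 to 0.371 CPM, Tnnt2 at 0 to 5.19 CPM and Nppa at 0 in every library. Those genes were in the sum that set the sarcomeric cells apart, so their low level follows from that split. Acta1 and Ankrd1, which were not in that sum, had 15.4 to 206 CPM and 23.5 to 235 CPM.

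Of 19 regulators of smooth muscle tested, 12 were higher and 0 lower over the 420 members. Myocd, encoding myocardin, was sparse at 1.30 to 6.51 CPM and differed by 5.06 ± 0.45. Srf, its partner, was at 14.2 to 25.4 CPM and differed by 0.88 ± 0.13. Foxc2, a forkhead gene of arch artery development, differed by 2.19 ± 0.19 and Prdm6, a repressor restricted to smooth muscle, by 2.12 ± 0.32. Tead2 and Yap1 of the Hippo pathway did not pass, at -0.10 ± 0.07 and -0.09 ± 0.14.

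Genes of outflow tract and cardiac identity were among the clearest features that the rule had not asked for. Of 14 such factors tested, 10 were higher and 0 lower, with a median log2 difference of 2.74. Tbx20 (a T-box factor of the outflow cushions and heart) was at 49.4 and 17.6 CPM at E9.5 (control, null), 134 and 211 CPM in the control E10.5 libraries and 135 and 162 CPM in the Tbx1 null E10.5 libraries, against at most 2.47 CPM in other mesenchyme. The difference was 6.72 ± 0.22 for Tbx20, 6.41 ± 0.27 for Gata4, 6.32 ± 0.27 for Gata5 and 5.64 ± 0.23 for Gata6, the GATA factors of heart and vessel development. Gata3 differed by 2.997 ± 0.137, Hand1 by 3.54 ± 0.47 and Isl1 by 2.48 ± 0.35. Sema3c, a guidance ligand of the outflow tract, did not pass, at -0.01 ± 0.23 and 2.60 to 11.6 CPM in members.

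Mural cell genes were mixed, 5 of 10 tested being higher. Besides Rgs5 (4.88 ± 0.33), Mcam differed by 3.29 ± 0.33, Cspg4 (the NG2 proteoglycan) by 2.18 ± 0.37 and Pdgfrb (the PDGF receptor of mural cells) by 1.14 ± 0.11. Notch3, the Notch receptor of arterial smooth muscle, was at 8.81 to 33.2 CPM in members and 7.995 to 29.6 CPM elsewhere, and did not pass (0.05 ± 0.14). The pericyte gene Higd1b was at 0 in every library.

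Signalling genes are given by role. Among the TGF-beta genes 13 of 20 were higher and 1 lower. Of the ligands, Tgfb1 differed by 4.73 ± 0.31 and Tgfb2 by 3.86 ± 0.24, the latter at 53.3 and 55.8 CPM at E9.5 and 280 to 373 CPM at E10.5. The co-receptor gene Eng differed by 3.42 ± 0.20, while the receptor gene Tgfbr1 did not pass (-0.12 ± 0.11). Tgfb1i1, a coactivator in smooth muscle, differed by 3.53 ± 0.20. For BMP genes 12 of 25 were higher and 3 lower. They held the ligand genes Bmp2 (3.38 ± 0.29) and Bmp4 (1.93 ± 0.22) and the inhibitory Smad6 (3.38 ± 0.15). The Id genes Id1 (0.00 ± 0.12), Id2 and Id3, which BMP signals induce, did not pass.

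Of 18 Notch genes, 5 were higher and 5 lower. The ligand gene Jag1 (1.44 ± 0.22) and the effector genes Hey2 (3.20 ± 0.33), Hey1 (1.81 ± 0.12) and Hes1 (1.11 ± 0.10) were higher, and the neural ligand genes Dll1 (-2.03 ± 0.40) and Dll3 (-1.10 ± 0.34) lower. Edn1, encoding the vasoconstrictor peptide endothelin-1, was at 5.88 to 81.0 CPM in members against 0.0879 to 0.904 CPM elsewhere, a difference of 6.93 ± 0.35. Its converting enzyme gene Ece1 was higher (2.06 ± 0.11), and both receptor genes were lower, Ednra by -0.71 ± 0.22 and Ednrb by -1.002 ± 0.303. Nrp1 (2.14 ± 0.13) and Plxnd1 (2.46 ± 0.31), receptors for class 3 semaphorins, were higher as well. Among nitric oxide response genes, the guanylate cyclase subunits Gucy1b1 (4.04 ± 0.19) and Gucy1a1 (3.29 ± 0.31) and the kinase gene Prkg1 (2.91 ± 0.23) were higher.

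Extracellular matrix genes were broadly higher in members, 34 of 45 tested against 2 lower, with a median of 1.44. The elastic fibre gene Fbn1 differed by 2.76 ± 0.13, Loxl1 (a cross-linking enzyme) by 3.02 ± 0.22, the collagen genes Col1a1 by 3.52 ± 0.42 and Col3a1 by 2.24 ± 0.14, Sparc by 3.32 ± 0.14 and fibronectin (Fn1) by 2.496 ± 0.119. Tnc (tenascin C) reached 4.66 ± 0.34. Elastin itself was near the floor, with Eln at 0 to 7.79 CPM in members and 0.99 ± 0.47, which did not pass.

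Genes of arch patterning were lower in members, 17 of 20 tested and 0 higher, with a median of -1.61. Barx1, a homeobox gene of arch ectomesenchyme, was at 70.3 and 26.4 CPM at E9.5 (control, null), 41.9 and 6.61 CPM in the control E10.5 libraries and 2.45 and 1.45 CPM in the Tbx1 null E10.5 libraries. Other mesenchyme of the same libraries had 149, 186, 202, 154, 88.9 and 11.8 CPM, so Barx1 was lower in members each time, by -2.91 ± 0.33. Dlx5 and Dlx6, which set ventral arch identity, differed by -1.55 ± 0.26 and -2.10 ± 0.25, and Gsc by -2.65 ± 0.23. Of 15 Hox genes 12 were lower and 0 higher, with -1.41 ± 0.17 for Hoxa2 and -1.26 ± 0.30 for Hoxb4. The markers Tbx2 and Tbx3 were lower by -0.85 ± 0.18 and -0.66 ± 0.17.

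Cell cycle genes were lower too, 20 of 23 tested, with a median of -0.74. Mki67 was at 72.8 to 141 CPM in members and 105 to 253 CPM in other mesenchyme (-0.92 ± 0.08), and Top2a differed by -0.87 ± 0.09. The cyclin gene Ccnd1 was the exception that was higher (0.49 ± 0.11). Cdkn1c, which encodes the cell cycle inhibitor p57, was at 1476 to 2534 CPM in members and 134 to 869 CPM elsewhere (2.35 ± 0.18), whereas Cdkn1b did not pass (-0.20 ± 0.14).

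Markers of other cell types were read for the 420 members by the whole list. The 9 endothelial genes summed to 19.1 to 206 CPM by library against 2.32 to 7.60 CPM in other mesenchyme, with Cldn5 at 0 in every library and 87 of the 420 members holding 3 or more endothelial UMIs and 4 holding 10 or more. Pecam1 was at 4.41 to 33.4 CPM, while Cdh5 was at 0 to 0.371 CPM outside the control E9.5 library, where it was at 45.5 CPM. The 15 cardiomyocyte genes summed to 138 to 673 CPM against 6.53 to 23.4 CPM, mostly as Actc1. The 9 epithelial genes summed to 226 to 742 CPM against 15.3 to 43.8 CPM through the keratin genes Krt8 and Krt18, with Krt5 at 0 and Epcam at 0 to 24.97 CPM. The 8 neuronal genes summed to 135 to 705 CPM against 32.9 to 1168 CPM. Their list includes Isl1, which is also among the outflow tract factors above. Among members, 9 held 99 to 486 neuronal UMIs where the median was 4, 7 of them in the control E10.5 libraries and 6 marked as doublets. Macrophage genes reached at most 0.818 CPM, skeletal muscle genes 0.629 to 41.9 CPM with Myod1 at 0, and blood genes 0 to 23.4 CPM. Dissociation stress genes summed to 2643 to 3060 CPM in members and 2370 to 3215 CPM in other mesenchyme, although 7 of 13 were called higher and 1 lower, among them the immediate early genes Fos (2.71 ± 0.31) and Atf3 (4.62 ± 0.30). At E9.5 Hsp90aa1 alone held 2166 and 2195 CPM of the stress sums of 2845 and 2910 CPM in members (control, null). Those sums therefore say little about the immediate early genes. The part of these markers in the differences above was not tested.

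The threshold of the rule was looked at by stepping through the lower of the Acta2 and Tagln UMIs of each cell that passed the filters, had no Sox10 UMI and was not sarcomeric. Cells at 0 were also required to be mesenchymal by Twist1, Prrx1 and Prrx2, and the cells at 1 or more were not, as in the rule for members. There were 26485 cells at 0, 143 at 1, 64 at 2, 34 at 3, 60 at 4 to 5, 68 at 6 to 10 and 258 above 10. Cnn1 stood at 0.431, 8.27, 19.1, 21.0, 28.5, 46.7 and 148 CPM across these steps, and Myl9 at 20.8, 232, 279, 305, 443, 494 and 1011 CPM. Pdlim3 went from 58.7 CPM at 2 UMIs to 223 CPM at 3, and Ankrd1 from 0.682 to 16.1 CPM. These values pool libraries of both stages. Ranges by library were taken over libraries with 5 or more cells at the step. Cnn1 ranged over 3.29 to 33.3 CPM at 2 UMIs and 0 to 38.2 CPM at 3. Pdlim3 ranged over 0 to 159 CPM at 2 UMIs and 0 to 648 CPM at 3, and Ankrd1 over 0 to 1.96 and 0 to 46.3 CPM. Pooled again, Tbx20 was at 32.1 CPM at 2 UMIs and 66.1 CPM at 3, Gata6 at 53.2 and 113 CPM, and Barx1 at 30.0 and 56.5 CPM.

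**Figure D2:**
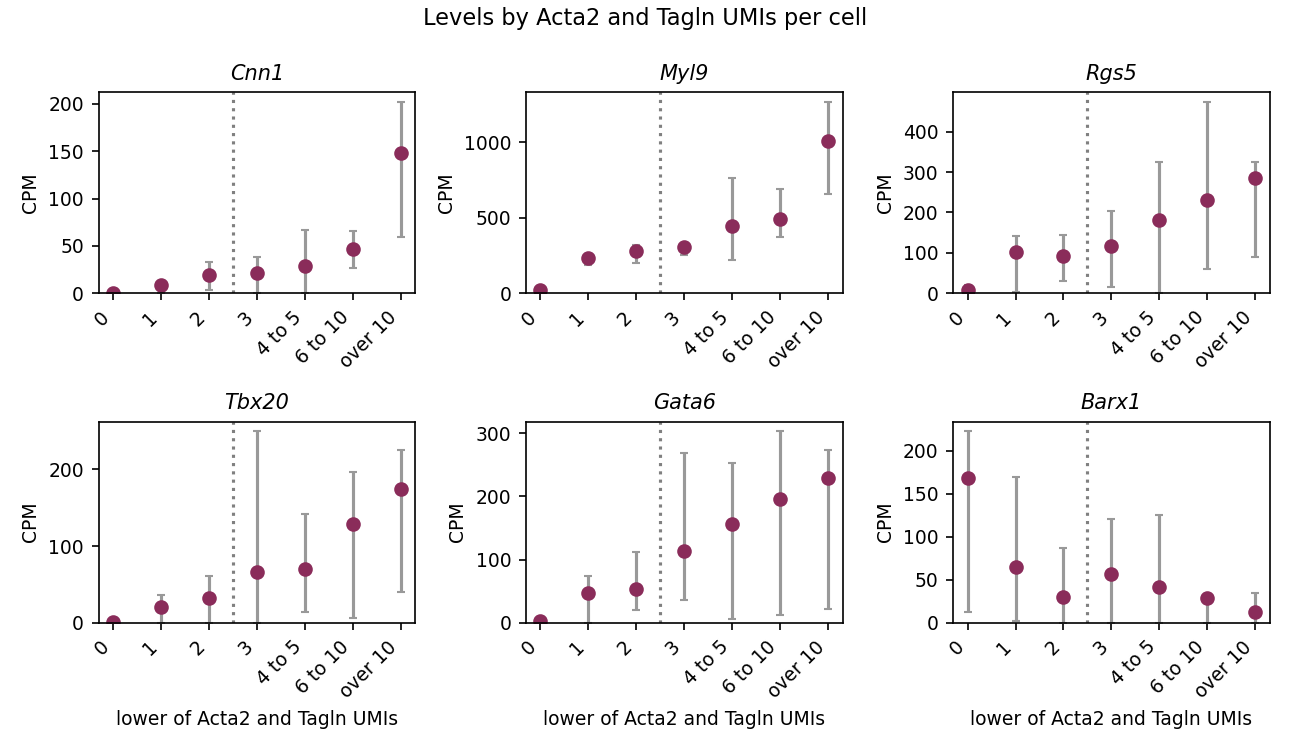
Level of 6 genes (CPM) by the lower of the Acta2 and Tagln UMIs in a cell with no Sox10 UMI that was not sarcomeric (at 0, mesenchymal cells only). Points pool the libraries, and a dotted line marks the rule's minimum of 3. Bars give the range over the libraries that held more than a few cells at that step, extended to the pooled value where it lay outside. Cnn1 goes from 0.431 CPM in cells at 0 to 19.1 CPM at 2 UMIs, 21.0 CPM at 3 and 148 CPM above 10.

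Members differed among themselves in the transcription factor genes they carried. Isl1 and Gata3 and, separately, Tbx2 and Tbx3 were used to sort them, as transcription factor genes known from the outflow tract and the arches. By detected UMIs, the Isl1 or Gata3 group without Tbx2 and Tbx3 held 44 of 96 and 87 of 159 members in the control E10.5 libraries, and 31 of 53 and 19 of 48 in the Tbx1 null E10.5 libraries. Tbx2 or Tbx3 without Isl1 and Gata3 held 9, 13, 2 and 3 members in the same order. These shares depend on depth, since thinning to 5000 UMIs moved the first group to 52 of 95, 80 of 157, 23 of 51 and 16 of 46 in that order. Thinning left the second group with 5 of 95, 13 of 157, 1 of 51 and 6 of 46, took the members with UMIs of both pairs from 38, 50, 12 and 22 to 8, 15, 2 and 6, and took those with neither from 5, 9, 8 and 4 to 30, 49, 25 and 18.

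Summed over the 4 E10.5 libraries, the 181 cells of the Isl1 or Gata3 group had Gata6 at 297 CPM, Tbx20 at 216 CPM and Rgs5 at 325 CPM. The 27 cells of the Tbx2 or Tbx3 group had 22.0 CPM of Gata6, 15.2 CPM of Tbx20 and 57.6 CPM of Rgs5. The matrix gene Postn (periostin) was at 254 and 50.8 CPM, and Igfbp7 at 214 and 10.2 CPM. The order was the opposite for Barx1, at 11.7 CPM in the first group and 113 CPM in the second, for Dlx5 at 7.61 and 74.5 CPM, and for Hoxb4 at 13.3 and 54.2 CPM. It held in both control libraries for these 3 genes, but Dlx5 and Hoxb4 were at 0 in the second group of null replicate 1, against 8.25 CPM each in the first. Contractile genes went both ways. Cnn1 was at 121 and 207 CPM and Myl9 at 759 and 1207 CPM, while Pdlim3 was at 683 and 91.4 CPM. Actg2 was at 26.2 and 22.0 CPM, but its order differed between genotypes. In the controls it was at 19.1 and 20.1 CPM (replicate 1) and at 10.4 and 28.3 CPM (replicate 2). In the nulls it was at 53.6 and 0 CPM (replicate 1) and at 52.2 and 18.6 CPM (replicate 2). In the second group the 3 cells of null replicate 2 held much of several genes. Pdlim3 was at 817 CPM there and at 3.36 to 37.7 CPM in the other libraries, Postn at 259.8 and 23.5 to 37.7 CPM, Igfbp7 at 74.2 and 0 to 9.43 CPM, Tbx20 at 92.8 and 0 to 37.0 CPM and Gata6 at 92.8 and 0 to 33.0 CPM. The sums of these genes in the second group are therefore lower without that library. Barx1 in the second group came from the controls, at 198 and 37.7 CPM, and was at 0 in the 2 and 3 null cells. These groups were defined from the data, the second is small, and 1 null library held all of its high Ankrd1 (2524 CPM from 3 cells), so no test was made.

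**Figure D3:**
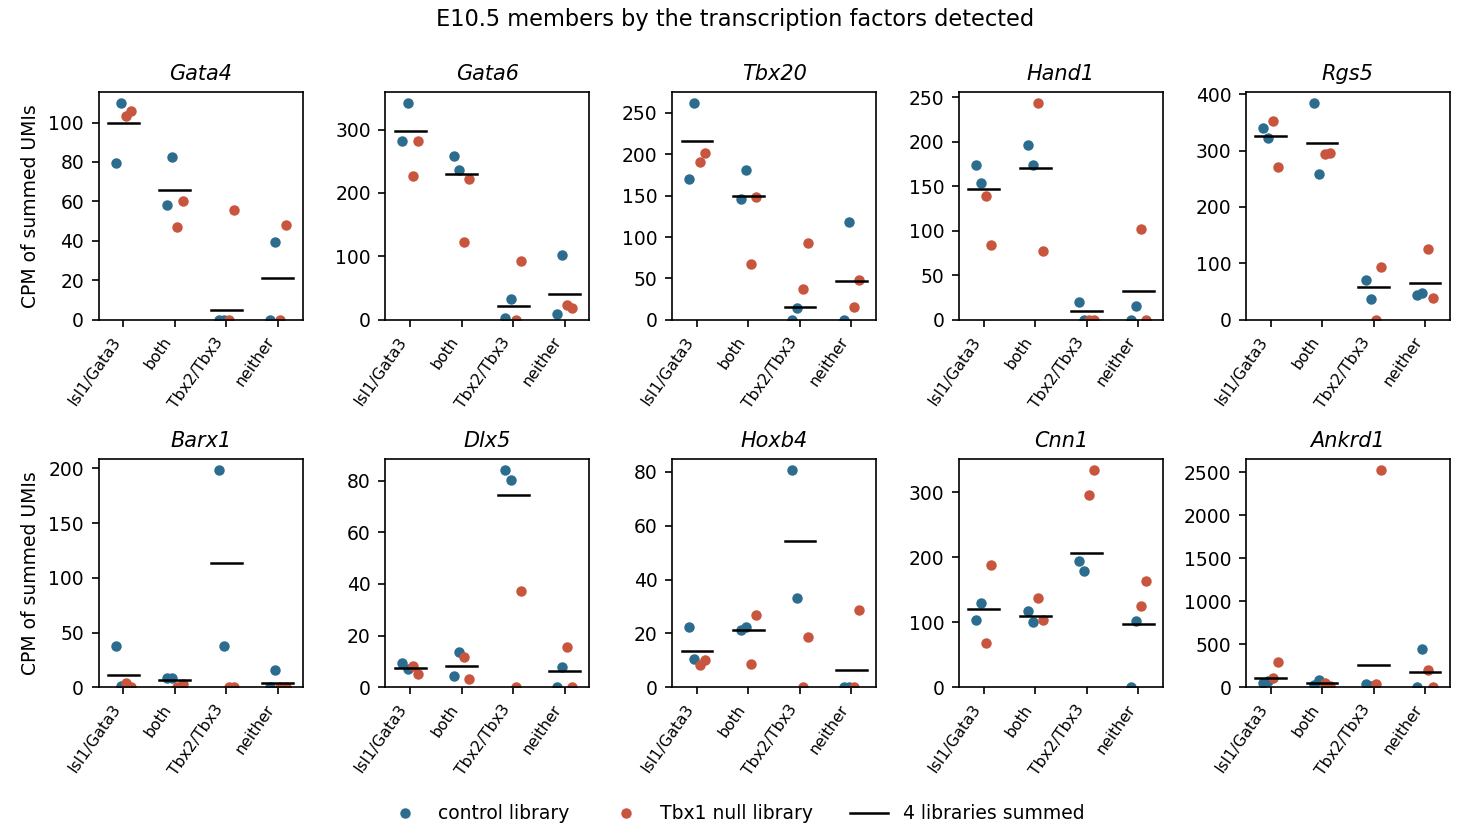
Level of selected genes (CPM) in E10.5 members grouped by UMIs of Isl1 or Gata3 only, of both pairs, of Tbx2 or Tbx3 only and of neither, points for single libraries (blue control, red Tbx1 null) and a black line for the 4 libraries summed. Gata6 is at 297 CPM with Isl1 or Gata3 only and 22.0 CPM with Tbx2 or Tbx3 only, and Barx1 at 11.7 and 113 CPM.

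The share of cells that met the rule was larger at E10.5 than at E9.5 and, at E10.5, was lower in both null libraries than in both controls. Members were 0.372% of filtered cells in the control E9.5 library (95% exact binomial interval 0.254% to 0.524%) and 0.425% in the Tbx1 null E9.5 library (0.310% to 0.569%). They were 1.35% (1.10% to 1.64%) and 1.55% (1.32% to 1.81%) in the control E10.5 libraries and 0.601% (0.450% to 0.785%) and 0.721% (0.535% to 0.949%) in the Tbx1 null E10.5 libraries. At E9.5 the 2 intervals overlap, and at E10.5 those of the genotypes do not; the intervals cover counting error only. The E10.5 means were 1.45% ± 0.144 (SD, n = 2) in controls and 0.661% ± 0.0846 (SD, n = 2) in nulls, a difference of -0.788 percentage points, for which an exact two-sided permutation test over libraries gave p = 0.333, the smallest that 2 against 2 allows.

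Mesenchymal cells, members included, were 3761 of 7351 and 7629 of 10259 filtered cells in the control E10.5 libraries and 3643 of 8820 and 2502 of 6939 in the Tbx1 null E10.5 libraries. Of mesenchymal cells, members were 0.537% and 0.558% at E9.5 (control, null), 2.63% and 2.08% in the control E10.5 libraries and 1.45% and 2.00% in the Tbx1 null E10.5 libraries. The means were 2.36% ± 0.388 and 1.73% ± 0.384 (SD, n = 2 each), a difference of -0.632 percentage points (p = 0.333, exact permutation test). Control replicate 2 and null replicate 2 lay close together, with intervals of 1.78% to 2.43% and 1.49% to 2.63%. The genotypes overlapped when 5 or more UMIs of each gene were asked for (-0.515) and when cells were thinned to 5000 UMIs (-0.353, p = 0.667 for both, exact permutation test). Without control replicate 1 or without null replicate 1 the difference was -0.358 or -0.360.

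**Figure D4:**
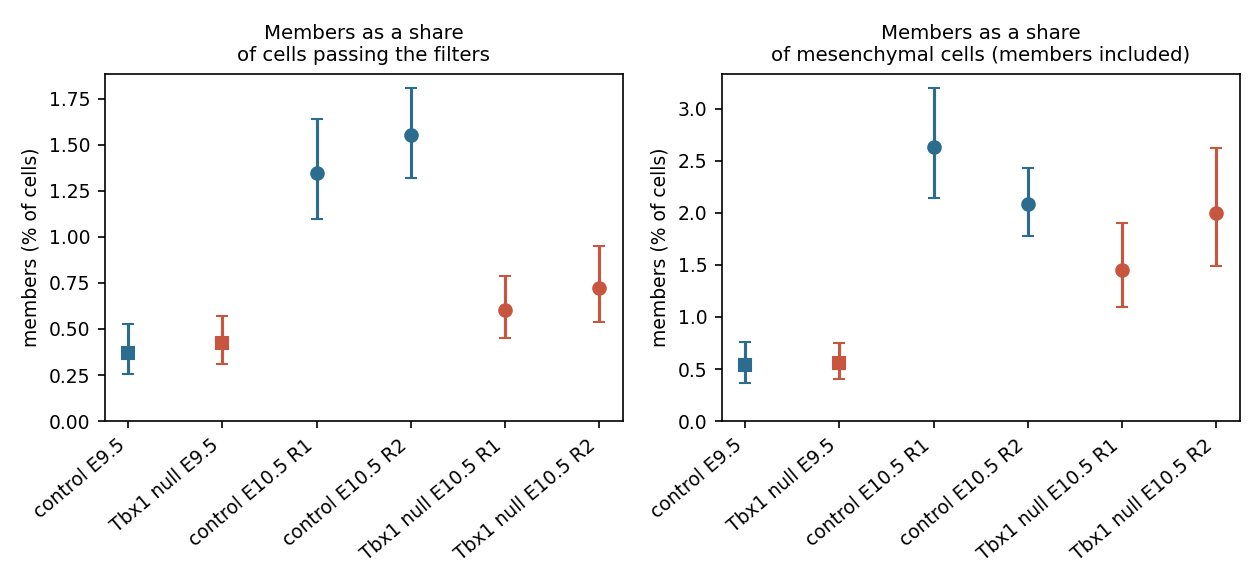
Share of members among filtered cells and among mesenchymal cells (percent) in each of the 6 libraries, squares for E9.5 and circles for E10.5, with exact binomial 95% intervals. Among filtered cells both null E10.5 libraries (0.601% and 0.721%) lie below both controls (1.35% and 1.55%), while among mesenchymal cells null replicate 2 (2.00%) is close to control replicate 2 (2.08%).

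Between stages, Pdlim3, the outflow factor genes Gata6 and Tbx20 and matrix genes such as Postn were higher in members at E10.5, and Msx1, Msx2, Lin28a and Ldha were lower. With genotype as a term, 9.52% of 9473 genes passed over all 438 members, 446 higher at E10.5 (4.71%) and 456 lower (4.81%). The sarcomeric cells moved with stage and led the largest named falls, among them Myl3 (-5.93 ± 1.67) and Tnnt2 (-3.97 ± 1.08). Over the 420 members 6.77% of 9310 genes passed, 330 higher (3.54%) and 300 lower (3.22%), and these values are used below. Over all members the calls fell from 902 to 32 without the control E9.5 library and to 79 without the Tbx1 null E9.5 library. These pools held 32 and 45 members in that fit. Leaving out a library was not run for the 420 members.

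Of 24 contractile genes tested, 5 rose with stage and 0 fell, with a median of 0.26. They were Pdlim3 (3.06 ± 0.31), Synpo2 (2.91 ± 0.51), Actg2 (3.92 ± 1.05), Cnn1 (1.25 ± 0.27) and Flna (0.77 ± 0.20). Over all 438 members 4 rose and 2 fell. Cnn1 did not pass there (0.13 ± 0.24, with 75.5 and 112.3 CPM at E9.5), and those that fell were Tpm1 (-1.03 ± 0.20) and the desmin gene Des (-1.74 ± 0.42). Pdlim3 was at 82.0 and 22.0 CPM at E9.5 (control, null) and at 398 to 677 CPM in the 4 E10.5 libraries, which did not overlap with E9.5. Myl9 had an adjusted p of 0.054 (0.69 ± 0.20), and Tpm1, at 1533 and 1590 CPM at E9.5 and 1433 to 1902 CPM at E10.5, did not pass (-0.18 ± 0.18). Rgs5 rose by 2.07 ± 0.23, and of the regulators Foxc2 (1.69 ± 0.32) and Ebf1 (1.68 ± 0.35) rose.

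Of 13 outflow tract factors 5 rose and 2 fell. Gata6 was at 45.5 and 19.1 CPM at E9.5 (control, null), 230 and 275 CPM in the control E10.5 libraries and 172 and 228 CPM in the null E10.5 libraries, a rise of 2.56 ± 0.28. Gata3 (2.06 ± 0.26), Tbx20 (2.02 ± 0.32), Gata4 (1.88 ± 0.36) and Gata5 (1.30 ± 0.34) rose with it. These are rises within members, and the list is set beside other mesenchyme below. Msx1 (-1.63 ± 0.25) and Msx2 (-1.85 ± 0.30), homeobox genes downstream of BMP, fell. Of the arch patterning genes Meox1 rose (3.39 ± 0.66), and Dlx5 (-2.16 ± 0.31) and Barx1 (-2.32 ± 0.62) were among those that fell. Of 8 Hox genes tested 3 rose, Hoxa3 by 4.36 ± 0.81, Hoxb4 by 2.82 ± 0.79 and Hoxd3 by 3.60 ± 0.95. The first arch, which is known to be Hox-negative, was in the dissection only at E9.5.

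Of 38 matrix genes tested, 16 rose and 0 fell, with a median of 0.94. Postn was at 2.60 and 10.3 CPM at E9.5 (control, null) and 168, 248, 197 and 243 CPM at E10.5 (controls, then nulls), a rise of 4.83 ± 0.41. Other mesenchyme had 4.68 and 5.26 CPM at E9.5 and 9.397 to 21.9 CPM at E10.5, so the level in members went from near that of other mesenchyme to well above it. Vcan (versican, 2.35 ± 0.38), Fbln2 (2.55 ± 0.31), Col3a1 (1.87 ± 0.21), Tnc (3.84 ± 0.59), Loxl1 (3.06 ± 0.48) and Loxl2 (1.97 ± 0.26) also rose. So did the TGF-beta genes Tgfb2 (2.25 ± 0.24) and Ltbp1 (2.77 ± 0.37) and the chondrogenic list gene Sox9 (2.24 ± 0.31), all 3 tested members of that list rising. Acan and Matn1, later cartilage genes, were at 0 in every library.

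**Figure D5:**
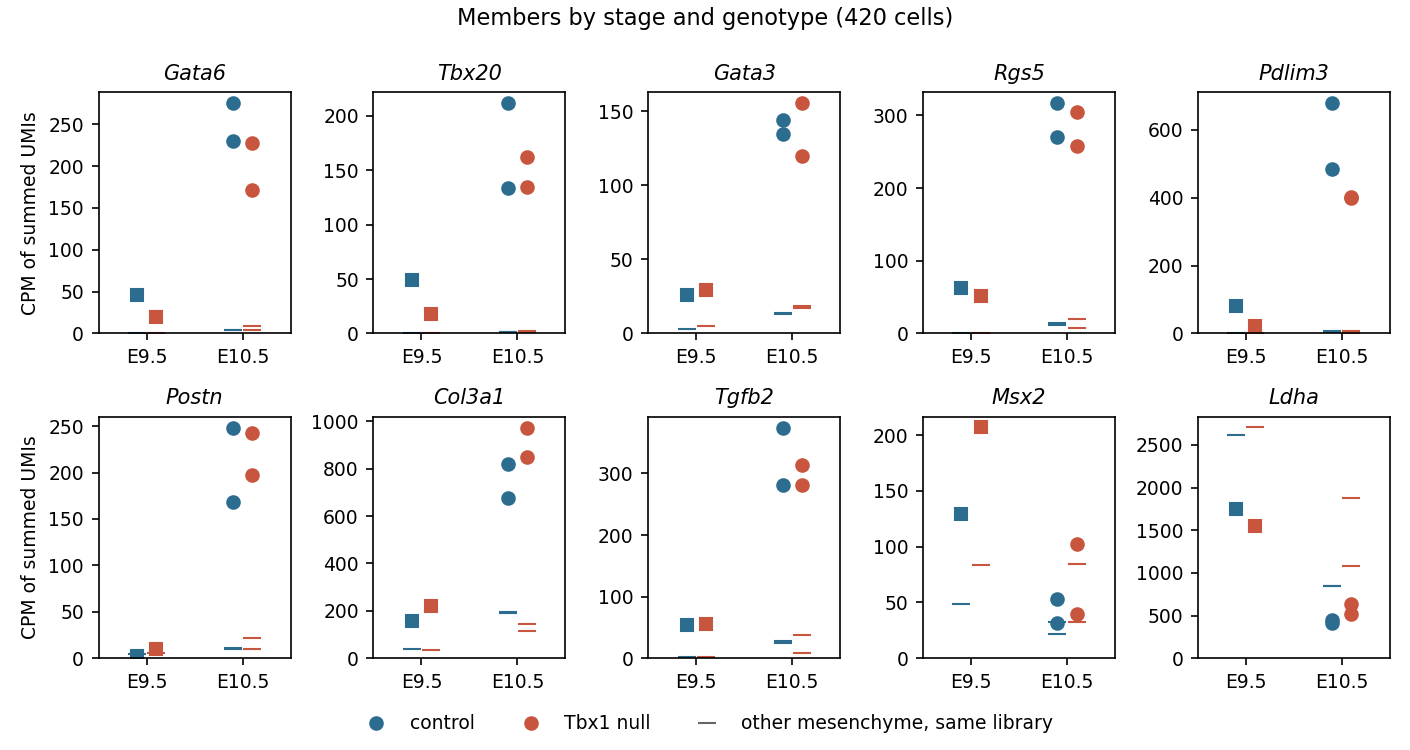
Level of 10 genes (CPM) in the 420 members of each library by stage and genotype (squares E9.5, circles E10.5), with dashes for other mesenchymal cells of the same library. Postn is at 2.60 and 10.3 CPM at E9.5 and between 168 and 248 CPM in the 4 E10.5 libraries, with control and null points intermingled.

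Among the genes named for the largest changes, Inhba (5.94 ± 0.91), encoding an activin subunit, Itga4 (5.16 ± 0.97), Slitrk4 (8.13 ± 1.32), Nfib (4.50 ± 0.42), Bdnf (4.70 ± 0.77), Bcl11a (4.22 ± 0.52), Erbb3 (4.17 ± 0.76) and Sorbs2 (3.998 ± 0.501) rose. Sorbs2 was not called over all 438 members. In the same test 2 of 7 neuronal genes rose and 0 fell, with a median of 4.18, and over all members 5 of 7 rose. The neuronal genes summed to 272 and 135 CPM at E9.5 (control, null) and 300 to 705 CPM at E10.5. Of the E9.5 sums, Isl1, also an outflow tract factor here, made up 55.9 and 44.1 CPM. Stmn2 made up 142 CPM in the control, most of it from 1 cell. The part of the neuronal genes in these rises was not tested. Itga4, an integrin subunit that binds fibronectin, was at 1.30 and 1.47 CPM at E9.5 and at 20.5 to 108 CPM at E10.5. The largest falls included Hopx (-4.49 ± 0.56), the let-7 regulators Lin28a (-2.53 ± 0.38) and Lin28b (-2.27 ± 0.32), Prtg (-2.18 ± 0.26) and Nr6a1 (-2.10 ± 0.40), and the glycolytic gene Ldha (-2.004 ± 0.191). Ldha went from 1752 and 1545 CPM at E9.5 to 408 to 635 CPM at E10.5, and in other mesenchyme from 2615 and 2716 CPM to 848 to 1880 CPM. The keratin genes Krt8 (-1.45 ± 0.29) and Krt18 (-1.32 ± 0.25) fell as well. Proliferation genes mostly did not pass, 3 of 23 falling (Cdk1, Aurkb and Birc5) and 0 rising.

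Whether a stage difference in members was larger or smaller than that in other mesenchyme was tested with limma on the log2 ratio of members to other mesenchyme in each library. Of 15942 genes over the 420 members 4.73% passed, 657 with a higher difference in members (4.12%) and 97 with a lower one (0.608%). The difference was shifted over all genes, with a median of 0.29 and 10927 of 15942 genes above 0, so the split of the calls is to be read beside that shift. The difference was higher in members by 4.33 ± 0.45 for Postn, 5.11 ± 0.47 for Itga4, 2.94 ± 0.28 for Loxl2, 1.85 ± 0.16 for Vcan and 2.43 ± 0.21 for Sox9. Mef2c (2.33 ± 0.27) and Wnt5a (1.48 ± 0.14) belonged to the same set. It was lower for Col1a1 (-3.003 ± 0.246), Hand1 (-2.93 ± 0.44) and Rgs5 (-2.07 ± 0.35). In other mesenchyme Rgs5 went from 0.383 to 0.556 CPM to 7.34 to 19.8 CPM. Of 15 outflow tract factors tested this way, 1 had a higher difference in members and 3 a lower one, with a median of -0.52. For Lin28a (-0.11 ± 0.39), Ldha (-0.18 ± 0.16) and Prtg (0.12 ± 0.17) the difference did not pass.

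At E10.5 the members of 2 null and 2 control libraries were compared gene by gene. Of 10302 genes tested by edgeR over all members of these libraries, sarcomeric cells included, 0 (0%) passed an adjusted p of 0.05. The lowest adjusted p was 0.169, 852 genes had an unadjusted p under 0.05 (485 higher and 367 lower in null), and DESeq2 called 11. With 1 library left out, 1 genotype holds a lone library, which is then assumed to vary like the other group. Without the sarcomeric cells, and with every E10.5 library, edgeR called 1.

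The contractile genes had values on both sides. Cnn1 was at 115 and 122 CPM in controls and 99.01 and 153 CPM in nulls, and its log2 difference was -0.03 ± 0.25 over all members. Myl9 was at 891 and 712 CPM in controls and 1080 and 1049 CPM in nulls (0.29 ± 0.21), and Pdlim3 at 485 and 677 against 398 and 402 CPM (-0.61 ± 0.23), neither of which passed. Actg2 was at 23.4 and 11.6 CPM in controls and 164 and 32.5 CPM in nulls (2.45 ± 0.63, adjusted p 0.53).

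For outflow factors Gata6 was at 230 and 275 CPM in controls and 172 and 228 CPM in nulls (-0.40 ± 0.23, adjusted p 0.66), and Tbx20 at 134 and 211 against 135 and 162 CPM (-0.32 ± 0.26). The genotypes overlapped for Tbx20, and for Gata6 the higher null value lay just under the lower control value. Among signalling genes Nrarp, a Notch feedback target, was at 14.8 and 8.81 CPM in controls and 49.9 and 30.4 CPM in nulls (1.72 ± 0.35, adjusted p 0.38), and Foxf2 at 4.82 and 3.46 against 26.2 and 15.9 CPM (2.28 ± 0.43, adjusted p 0.38). Meox1 was at 74.9 and 87.2 CPM in controls and 21.3 and 90.3 CPM in nulls, so its low value was in null replicate 1 only. Xist, the transcript of the inactive X chromosome in female cells, was at 305 and 262 CPM in controls and 556 and 679 CPM in nulls (1.10 ± 0.21, adjusted p 0.38), and the sex mix of the pools was not controlled for.

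A class by genotype interaction asked whether the genotype difference in members differed from that in other mesenchyme of the same libraries. By edgeR over all members 1.54% of 15769 genes passed, 57 higher (0.361%) and 186 lower (1.18%), while limma on the per-library ratios called 0 with 1283 genes at an unadjusted p under 0.05, and DESeq2 called 82. The calls therefore depended on the tool. Foxd1, a forkhead gene, was at 23.7 and 11.96 CPM in control members and 36.8 and 66.5 CPM in null members, and at 37.0 and 30.1 CPM against 12.3 and 12.7 CPM in other mesenchyme, an interaction of 2.98 ± 0.26. Itm2a was at 149 and 121 against 251.2 and 195 CPM in members and at 73.8 and 63.0 against 40.2 and 45.2 CPM in other mesenchyme (1.48 ± 0.16). In both genes the genotype difference had opposite signs in the 2 kinds of cell. Of the Hox list 7 of 15 and of the neuronal list 5 of 8 were lower. The neuronal genes summed, over the 420 members, to 560 and 300 CPM in controls and 317 and 705 CPM in nulls, and in other mesenchyme to 217 and 129 CPM in controls and 297 and 1168 CPM in nulls, and their part in the interaction was not tested. Some of the largest named values went with high levels in single libraries. Ttr was at 480 CPM in control replicate 1 and at most 6.92 CPM in the others. Dbh was at 23.9 CPM in control replicate 2 and at most 0.723 CPM in the others. Over the 420 members Myog was at 27.5 CPM in null replicate 2 and 0 in the others. The Myog interaction (12.6) was fitted over all members, where 1 sarcomeric cell of null replicate 2 held 94 further Myog UMIs. With that cell included, the skeletal muscle genes of that library summed to 128 CPM, against 41.9 CPM over the 420 members. The interaction was -8.31 for Ttr, -5.54 without control replicate 1 and 0.36 with called doublets removed, and for Dbh it went from -7.10 to 4.05 without control replicate 2.

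At E9.5 there was 1 library per genotype, so values are compared without a test, with exact Poisson intervals that cover counting error only. Over the 28 control and 36 null members without the sarcomeric cells, 2984 genes reached 50 CPM in 1 of the libraries. The intervals did not overlap for 172 genes with null above and 203 with null below. Of the contractile genes, Acta2 at 934 and 928 CPM (control, null; a gene of the rule), Myl9 at 490 and 455 CPM, Tpm1 at 1533 and 1590 CPM and Cnn1 at 32.5 and 54.4 CPM had overlapping intervals. The intervals did not overlap for Tpm2 (254 and 410 CPM), Myl6 (1176 and 1538 CPM) and Pdlim7 (297 and 417 CPM), higher in null, or for Pdlim3 (82.0 and 22.0 CPM) and Csrp2 (1374 and 961 CPM), lower in null. Hand1 was at 289 CPM (252 to 329) in control and 110 CPM (86.7 to 138) in null, and Hand2 at 122 CPM (98.8 to 150) and 64.6 CPM (47.0 to 86.8). Msx1 stood at 121 and 201 CPM, Msx2 at 129 and 207 CPM and Nrp2, a semaphorin and VEGF co-receptor, at 26.0 and 95.5 CPM. With the sarcomeric cells included, the intervals overlapped for Msx1 (103 and 149 CPM) and Msx2 (110 and 155 CPM). Among other BMP genes, without those cells, Bambi, Dkk1, Id1, Id3, Smad6 and Smad7 had overlapping intervals, and Id2 was higher in null (319 and 450 CPM).

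Several of the largest E9.5 differences came from very few cells. Klf2, a shear-responsive endothelial factor gene, had 120 UMIs in control members, of which 119 were in 1 cell, and Cd34 (36 of 41), Slc9a3r2 (41 of 48) and Stmn2 (100 of 109) likewise had most of their UMIs in 1 control member. All 50 Hes5 UMIs in null members came from 1 cell. Igfbp2 was spread more widely, with 57 UMIs in 15 of 28 control members and 519 UMIs in 29 of 36 null members (74.2 and 762 CPM), and Dkk2, a Wnt inhibitor gene, was detected in 2 of 28 and 11 of 36. At E10.5 Igfbp2 was at 349 and 70.5 CPM in controls and 591 and 179 CPM in nulls, which overlapped. Xist had 0 UMIs in the control E9.5 members and 220 UMIs in 16 of 36 null members, and it was at 0.0388 CPM in other mesenchyme of the control and 369 CPM in that of the null library. Genotype, kit version and the sex of the pooled embryos cannot be told apart at E9.5.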

How the data were processed

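Neural crest cells were sorted from pooled embryos and sequenced with 10x Genomics chemistry in 7 libraries, of which the E8.5 control was not used in any comparison. The authors aligned reads to mm10 and deposited UMI counts per gene and cell for 32285 genes, made with Cell Ranger 6.0.1 as named in the submitters' processing notes; these counts are not normalized. Counts were summed over the members and over the other mesenchymal cells of each library, and the library, a pool of embryos, was the replicate. P-values measure the spread between pools or, with library as the block, that of the differences within libraries. With 1 pool per genotype at E9.5, the stage test took its spread from the E10.5 replicates and from a genotype difference assumed equal at both stages. Depth was 146254671 to 234844769 UMIs per library and 900344 to 3178344 UMIs in its members, and 1 UMI of a member sum was worth 0.315 to 1.11 CPM.

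Tests used the quasi-likelihood test of edgeR 4.0.16 with TMM scaling and Benjamini-Hochberg adjustment over all genes tested (threshold 0.05), or limma 3.58.1 on log2 ratios where named. The terms were library and cell class, stage and genotype, genotype at E10.5, or class by genotype. The 6 genes of the cell rule were not tested. Alternatives were DESeq2 1.42.0, its size factors, no filter on low counts, other cell filters, thinning, removal of doublets (the highest Scrublet scores, scanpy 1.11.5, at 0.8% per 1000 barcodes), a replicate block and leaving out each library. The scripts were tested on simulated counts. Shares were compared by an exact two-sided permutation test.

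The members and the gene lists were chosen with earlier results of these data known, so a list is described by its counts and its median beside those over all genes. Genes named outside the lists were the 12 largest rises and falls among called genes of at least 20 CPM with the same direction in every library, and at E9.5 the 5 largest among genes of at least 50 CPM; genes without list or rank (Itm2a, Foxf2, Dbh and similar) came from the named genes of the interaction.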

Additional observations from a re-analysis of the deposited data

Results flagged for a closer look

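The genotype difference at E10.5 differed between members and other mesenchyme for 243 genes by edgeR. Among them was Foxd1 (2.98 on the log2 scale), whose values per library are given above, and limma on the per-library ratios called 0 genes.

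The stage difference differed between members and other mesenchyme for 754 genes by limma over the 420 members, 657 of them with a higher difference in members, where the median difference over all genes was 0.29 and 10927 of 15942 genes were above 0.

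In the control E8.5 library, which entered no comparison, 6 of 5874 filtered cells met the rule for members.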

How the results depend on the processing

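Over 92 results of named genes and 1528 alternatives, 1274 values kept their direction and their side of the threshold. Of the rest, 242 no longer passed, 8 newly passed and 4 changed sign. A gene named in more than 1 comparison counts in each. The genes were named for a call with the same direction in every library, so the number of kept values follows in part from that choice. The sign changes were Sorbs2 between stages without the control E9.5 library (-0.19, against 1.07 without the Tbx1 null E9.5 library, over all members) and, in the interaction, Dbh without control E10.5 replicate 2 (4.05, against -13.7 without null E10.5 replicate 2) and Ttr (0.36) and Uncx (0.48) with called doublets removed. Between members and other mesenchyme 5221 genes were called, 2599 after thinning to 5000 UMIs, 2291 without the library block and 4047 to 5143 with a library left out. Between stages 902 were called, against 1501 with no filter on low counts, 567 in members with under 3 cardiac UMIs, 570 with the other cell filter (a minimum of 200 genes, a maximum of 5% mitochondrial), 165 after thinning and 32 to 746 with a library left out. Between genotypes at E10.5 the 0 calls became 11 by DESeq2, 181 with no filter, 3 in members with under 3 cardiac UMIs, 4 with the other cell filter, 1 each with doublets removed, after thinning and without the sarcomeric cells, and 17 to 95 with a library left out. The 243 interaction calls became 154 with DESeq2 size factors, 82 by DESeq2, 17 after thinning, 0 by limma with and without the sarcomeric cells, and 182 to 430 with a library left out. The E10.5 share difference was -0.889 to -0.686 percentage points of filtered cells and -0.906 to -0.358 of mesenchymal cells with a library left out. The cause of these shifts was not tested, apart from the fewer libraries, cells or UMIs that some of the alternatives hold by construction.

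With the replicate number as a block, 17 genes were called between genotypes at E10.5. Deviations of samples with the same number correlated at 0.0241 over 6505 genes, and the numbers name pools, so the pairing has no basis in the design.

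With 1 library per genotype at E9.5 and 2 at E10.5, and 28 to 159 members per library without the sarcomeric cells, genes under a few CPM rest on a handful of UMIs, and 0.333 is the smallest p of the permutation test. Alternatives chosen after seeing the data were leaving out the sarcomeric cells, leaving out each E9.5 library, the limma ratios (the stage difference beside other mesenchyme among them), and the genotype fit over 6 libraries with stage as a term, which called 0 genes by edgeR (591 at an unadjusted p under 0.05).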

Other observations

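Further gene groups were read in the 420 members against other mesenchyme. Over all 13989 genes tested there, 16.2% were higher and 20.9% lower. The counts of the FGF group, the hedgehog, retinoid and Wnt group and the cell cycle inhibitor group lay near those shares. Of 19 FGF pathway genes 4 were higher and 2 lower. Etv1, an ETS factor gene downstream of FGF, differed by 1.14 ± 0.20 and Spry1, a feedback inhibitor, by 0.66 ± 0.21, while the ligand gene Fgf10 (-1.89 ± 0.67) and Mycn (-1.49 ± 0.15) were lower and the receptor gene Fgfr1 did not pass (-0.23 ± 0.10). Of 21 hedgehog, retinoid and Wnt genes 2 were higher and 6 lower. The retinoid-binding genes Crabp1 (-1.71 ± 0.22) and Crabp2 (-1.69 ± 0.10) and the Wnt target genes Axin2 (-1.45 ± 0.28) and Lef1 (-0.93 ± 0.15) were lower, and the Wnt ligand genes Wnt11 (2.70 ± 0.57) and Wnt5a (0.68 ± 0.20) higher. Axin2 was at 8.53 to 22.0 CPM in members and 10.4 to 65.3 CPM in other mesenchyme.

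Of 18 cell cycle inhibitor and growth arrest genes 4 were higher and 3 lower. Besides Cdkn1c, these were Cdkn1a (1.68 ± 0.45), Cdkn2b (1.12 ± 0.31) and Gadd45b (2.47 ± 0.30) on the higher side and Gas1 (-1.20 ± 0.30), Ccng2 (-0.75 ± 0.16) and Gadd45g (-0.85 ± 0.23) on the lower. Cdkn1a was at 0 to 24.97 CPM and uneven between libraries. Of 11 calcium handling and nitric oxide response genes 6 were higher and 0 lower, including the calcium pump gene Atp2a2 (0.42 ± 0.08) and the release channel gene Itpr1 (0.56 ± 0.15). The calcium channel genes Cacna1c (-0.03 ± 0.38) and Cacna1d (0.06 ± 0.48) did not pass, and Kcnmb1, a potassium channel subunit gene of mature smooth muscle, was at 0 to 2.60 CPM.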
